A study of Mus musculus with 2 samples.

Results

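Astrocytes are glial cells that take up glutamate and potassium around synapses, couple to each other through gap junctions, wrap blood vessels with their endfeet and supply lipids and glutamine to neurons. The 10 genes described here (Gfap, Aqp4, Aldh1l1, Aldoc, Gja1, S100b, Fgfr3, Glul, Sox9 and Apoe) are widely used to mark them. Their peaks were all those whose assigned gene symbol, in the authors' annotated peak table, was 1 of the 10 names. This gave 32 of the 99797 peaks of the anti-FLAG library. They are grouped because a CamK promoter should be silent in astrocytes, and the rule uses no measured value.

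The series holds CUT&Tag libraries of untreated C57BL/6J mice with the genotype CamK-PARIS. The tissue was hippocampus, with 1 library made with an anti-FLAG antibody and 1 with IgG as the negative control. In CUT&Tag an antibody brings the transposase Tn5 to its target on chromatin, where Tn5 cuts the DNA and adds sequencing adapters. PARIS, encoded in the mouse by Zfp746, is a zinc-finger repressor that has been reported to bind insulin response sequences. The Camk2a promoter is widely used to drive transgenes in excitatory forebrain neurons, but the labels state neither the construct behind the name CamK-PARIS nor where the FLAG tag sits. They also give no age, sex or number of animals. Both groups share the genotype, so no animal without the transgene is compared here, and the IgG library enters only as the authors' control in peak calling. With 1 library per antibody there is no replicate error and no test between conditions, and all intervals below cover counting over genes or peaks only. The tissue held all cell types of the hippocampus, so a site bound in few cells and a site bound weakly in many cells cannot be told apart, and the files hold no expression values against which astrocyte content could be checked. Sequencing depth is unknown.

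By the authors' assignment, a minority of these genes had a peak near an annotated start, as did a minority of all protein-coding genes. An assigned peak lay within 1 kb of an annotated transcription start site (TSS) for 3 of the 10 genes, Fgfr3, Apoe and Aldh1l1 (30%, 95% Wilson interval 10.8 to 60.3), against 41.6% of all 21911 protein-coding genes. The interval holds the background share. Counted by position near protein-coding starts, the 3 genes were Fgfr3, Apoe and Sox9, as described below. Sox9, the astrocyte transcription factor, carried the tallest assigned peak, with a maximum signal of 229, just inside the gene. Aldoc and Gja1 had no assigned peak, and Gfap and S100b had 1 each, of 100 and 90. At least 1 peak was assigned to 8 of the 10 genes (80.0%, 49.0 to 94.3), against 71.0% of protein-coding genes.

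The shape of a peak matters to how these values read. The authors' total signal is the coverage summed over the bases of a peak, and it equals maximum signal times width where the coverage is flat. Peaks that reach at least 99% of that product are called constant-height peaks, a definition made after these data had been seen. Of the 32 peaks, 25 were of constant height (78.1%, 61.2 to 89.0), against 63.3% of all peaks. The 7 others belonged to Fgfr3 (3 peaks), Glul (2), Aldh1l1 (1) and Sox9 (1). Thus 4 of the 10 genes had an assigned peak that was not of constant height (40%, 16.8 to 68.7), against 50.9% of protein-coding genes. By the authors' assignment, 1 of the 10, Fgfr3, had such a peak within 1 kb of a TSS (10%, 1.8 to 40.4), against 28.3% of protein-coding genes. These intervals for genes hold the shares of all protein-coding genes.

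Before the values, the upstream sequences of 5 of the genes show how different their starts are. Each is 250 bases directly before a RefSeq start (build GRCm38.p6, which is mm10), on the strand of the gene, with every CG dinucleotide in capitals. Fgfr3 is shown because a peak covered all 250 bases, and Apoe because a peak lay just inside the gene. Glul is shown because its start had many CG and no peak. Gfap and Gja1 are shown as starts without a peak within 1 kb, the nearest being 1210 bp and 63594 bp away.

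Fgfr3, chr5:33722056-33722305, plus strand: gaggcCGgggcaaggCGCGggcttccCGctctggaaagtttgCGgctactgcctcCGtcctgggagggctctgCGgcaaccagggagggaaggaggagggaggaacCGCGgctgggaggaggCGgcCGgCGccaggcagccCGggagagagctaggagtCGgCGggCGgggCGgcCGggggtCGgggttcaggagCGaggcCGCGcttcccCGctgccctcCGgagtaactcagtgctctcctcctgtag

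Glul, chr1:153899679-153899928, plus strand: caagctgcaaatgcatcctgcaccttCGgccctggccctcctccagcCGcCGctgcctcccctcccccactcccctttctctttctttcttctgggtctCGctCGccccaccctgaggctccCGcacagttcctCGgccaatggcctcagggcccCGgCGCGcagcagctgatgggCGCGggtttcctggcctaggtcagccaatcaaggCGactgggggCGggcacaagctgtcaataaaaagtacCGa

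Apoe, chr7:19699189-19699438, minus strand: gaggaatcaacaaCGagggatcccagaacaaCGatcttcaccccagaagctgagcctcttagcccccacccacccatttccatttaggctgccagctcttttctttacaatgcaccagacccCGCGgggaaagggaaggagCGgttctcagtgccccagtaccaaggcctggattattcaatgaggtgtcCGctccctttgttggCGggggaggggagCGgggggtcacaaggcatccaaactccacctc

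Gja1, chr10:56377050-56377299, plus strand: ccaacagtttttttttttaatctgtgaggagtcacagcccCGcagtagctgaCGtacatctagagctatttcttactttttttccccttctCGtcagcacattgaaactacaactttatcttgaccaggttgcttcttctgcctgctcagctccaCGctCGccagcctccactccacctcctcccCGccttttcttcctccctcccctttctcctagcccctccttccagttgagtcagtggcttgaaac

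Gfap, chr11:102897201-102897450, minus strand: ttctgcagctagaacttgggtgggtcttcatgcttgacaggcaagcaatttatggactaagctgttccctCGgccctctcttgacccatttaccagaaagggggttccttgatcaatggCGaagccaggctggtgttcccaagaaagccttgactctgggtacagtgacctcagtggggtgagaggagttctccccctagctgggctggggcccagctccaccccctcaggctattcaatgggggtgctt

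The Fgfr3 sequence holds 24 CG dinucleotides, the Glul sequence 15, the Apoe sequence 8, the Gja1 sequence 6 and the Gfap sequence 2. Counted over the whole RefSeq promoter, which adds 50 bases after the start, the ratio of observed to expected CG was 0.78 for this Fgfr3 start and 0.13 for Gfap, with a median of 0.38 over all 32851 promoters of the table. RefSeq promoters were found for 8 of the 10 genes, 12 promoters in all, and Aqp4 and Sox9 had no entry. Among protein-coding genes with a promoter whose ratio was at least 0.6, 61.2% had an assigned peak within 1 kb of a TSS, and among those below it 25.1%. With peaks of any assignment within 1 kb of the start of a protein-coding transcript, these shares were 63.7% and 25.2%. Fgfr3 and Apoe, the latter through an internal start with a ratio of 0.62, were the 2 of the 8 genes with a ratio of at least 0.6. Both had a peak within 1 kb. Among the RefSeq starts of Apoe, however, the start nearest to the peak, at 67 bp, had a ratio of 0.40. The other 6 (Gfap, Aldh1l1, Aldoc, Gja1, S100b and Glul) had none within 1 kb of a protein-coding start. The part that CG content plays in these counts was not tested.

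**Figure D1:**
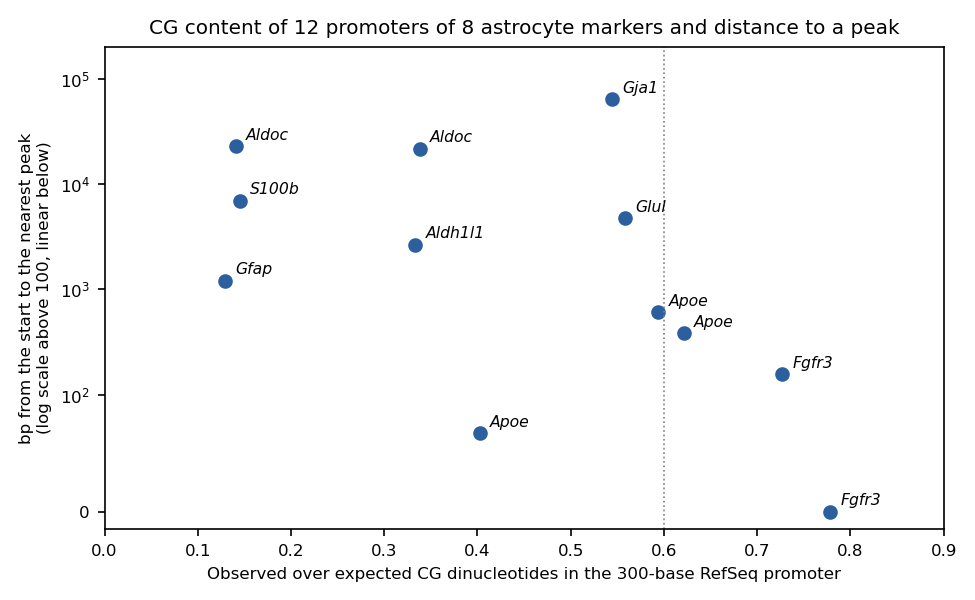
Distance in bp from each of 12 RefSeq starts of 8 astrocyte marker genes to the nearest peak of any assignment (vertical axis, log scale above 100 bp) against the ratio of observed to expected CG dinucleotides in the 300-base promoter (horizontal axis). Each point is 1 promoter and the dotted line marks 0.6; the Fgfr3 start at 0.78 lies inside a peak, while Gja1 at 0.54 lies 63594 bp from the nearest peak.

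Sox9 encodes an HMG-box transcription factor that is needed to form astrocytes and stays on in them. The gene (ENSMUSG00000000567.5, chr11:112782224-112787760, plus strand, mm10) had 1 assigned peak, at chr11:112783257-112784199. This peak was 943 bp wide, had a maximum signal of 229 and a total signal of 79898, and stood at the 94.2 percentile of all peaks by maximum (ties counted evenly). It covers coding exon sequence, and its region of maximum signal, 1054 bp downstream of the TSS, lies in an intron. A second peak, at chr11:112781566-112782527 with a maximum of 245, overlapped the Sox9 start itself. The authors' table assigned this peak to BC006965, a noncoding transcript that starts 248 bp away on the other strand, so the rule by gene symbol does not count it. Neither peak was of constant height. A narrow constant-height peak of 112, also assigned to BC006965, ended 797 bp upstream of the Sox9 start. Counted by position, Sox9 therefore had the tallest signal at a start among the 10 genes.

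Fgfr3 encodes a receptor tyrosine kinase for fibroblast growth factors. The gene (ENSMUSG00000054252.18, chr5:33721674-33737068, plus strand) had 6 assigned peaks, and for 3 the distance to a TSS was under 1 kb. The widest, 1126 bp at chr5:33721880-33723005, had a maximum signal of 99 and spanned the start at 33722306, whose upstream sequence is printed above. Its region of maximum signal began 3 bp downstream of that start, in UTR sequence. A peak of 89 at chr5:33720796-33721454 lay 220 bp upstream of the outermost start, over an exon of the unclassified transcript G630022F23Rik, which the widest peak also overlapped. A constant-height peak of 72 lay in an intron, 474 bp from the start of a shorter protein-coding transcript. The 3 remaining peaks, of 16, 77 and 84, lay outside the gene, at -17826 bp, -5209 bp and 4264 bp from the starts assigned to them. Fgfr3 thus had the most peaks around its start, but its highest, at 99, stood at the 48.2 percentile of all peaks.

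Gfap encodes the intermediate filament protein of astrocytes and is raised in reactive astrocytes. The gene (ENSMUSG00000020932.14, chr11:102887336-102900912, minus strand) had 1 assigned peak, at chr11:102895517-102895990, of constant height 100 and 474 bp wide. It lay over coding exon sequence, also inside an intron of the noncoding gene Gm26668, 1142 bp downstream of the assigned TSS. A second constant-height peak inside the gene, of 45, overlapped exon and UTR sequence at the 3′ end of Gfap and was assigned to the neighbour Fam187a. The start printed above had no peak within 1 kb.

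Aqp4 encodes the water channel of astrocyte endfeet. The gene (ENSMUSG00000024411.10, chr18:15389496-15410982, minus strand) had 6 assigned peaks, all of constant height, with maxima of 64, 97, 112, 132, 132 and 136. The only peak inside the gene, of 132 at chr18:15405220-15405360, was intronic, also within an intron of the antisense gene AC133525.2, and lay 1462 bp upstream of the TSS of the transcript assigned to it. The other 5 were at 50419 to 152467 bp from the assigned starts, and 2 of them lay in introns of the neighbour Chst9.

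Gja1 encodes the main connexin of astrocyte gap junctions. The gene (ENSMUSG00000050953.10, chr10:56377330-56402513, plus strand) had no assigned peak and no peak in its body. The nearest peak to any start of its protein-coding transcripts was 61806 bp away, had a maximum of 106 and was assigned to Gm36595. Of all protein-coding genes, 6.98% had their nearest peak farther from a start.

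Aldoc encodes aldolase C, a glycolytic enzyme that in the forebrain is enriched in astrocytes. The gene (ENSMUSG00000017390.15, chr11:78322968-78327781, plus strand) likewise had no assigned peak and none in its body. Its nearest peak, of constant height 104 and assigned to Spag5, was 21586 bp from the start, and 18.4% of protein-coding genes had their nearest peak farther away. Within 100 kb of Aldoc there were 12 peaks, all assigned to other genes.

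Glul encodes glutamine synthetase, which turns the glutamate that astrocytes take up into glutamine. The gene (ENSMUSG00000026473.15, chr1:153899944-153909723, plus strand) had the most assigned peaks of the list, 8, but none overlapped its body or lay within 1 kb of a TSS. All 8 lay downstream, 9904 to 74900 bp from the assigned start, with maxima from 64 to 145. The 2 that were not of constant height had maxima of 122, over an exon of the noncoding gene Gm29290, and 128. The peak nearest to the Glul start, 4770 bp upstream with a maximum of 154, was assigned to Teddm1a.

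Aldh1l1 encodes a folate-metabolizing dehydrogenase whose promoter is used to label astrocytes. The gene (ENSMUSG00000030088.15, chr6:90486427-90600203, plus strand) is the longest of the 10 at 113777 bp and had 7 assigned peaks, 6 of them overlapping its body. Their maxima were 34, 60, 73, 105, 107, 156 and 175. The tallest, at chr6:90560474-90560892, was the only Aldh1l1 peak that was not of constant height, and it lay in an intron. The peak of 156 counted as within 1 kb of a TSS because it lay at -590 bp from the start of a retained-intron transcript deep inside the gene. It was 37834 bp from the nearest start of a protein-coding transcript. The peak nearest to such a start, of 60, was 2602 bp away. The peaks of 105 and 34 overlapped the gene body but lay upstream of all its protein-coding starts, 12389 bp and 7838 bp from the nearest.

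S100b encodes a calcium-binding protein that astrocytes also release. The gene (ENSMUSG00000033208.7, chr10:76253853-76261159, plus strand) had 1 assigned peak, of constant height 90 and 193 bp wide, in intergenic sequence 6948 bp upstream of its TSS. No peak overlapped the gene.

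Apoe encodes apolipoprotein E, the main lipid carrier released by astrocytes. The gene (ENSMUSG00000002985.16, chr7:19696109-19699188, minus strand) is the shortest of the 10, at 3080 bp, and had 2 assigned peaks, both of constant height and both inside the gene. The peak at chr7:19699003-19699121, with a maximum of 136, overlapped annotated starts of Apoe transcripts in the 5′ UTR and lay 67 bp downstream of the RefSeq start whose upstream sequence is printed above. The other, of 130 at chr7:19696945-19697146, covered coding exon sequence.

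**Figure D2:**
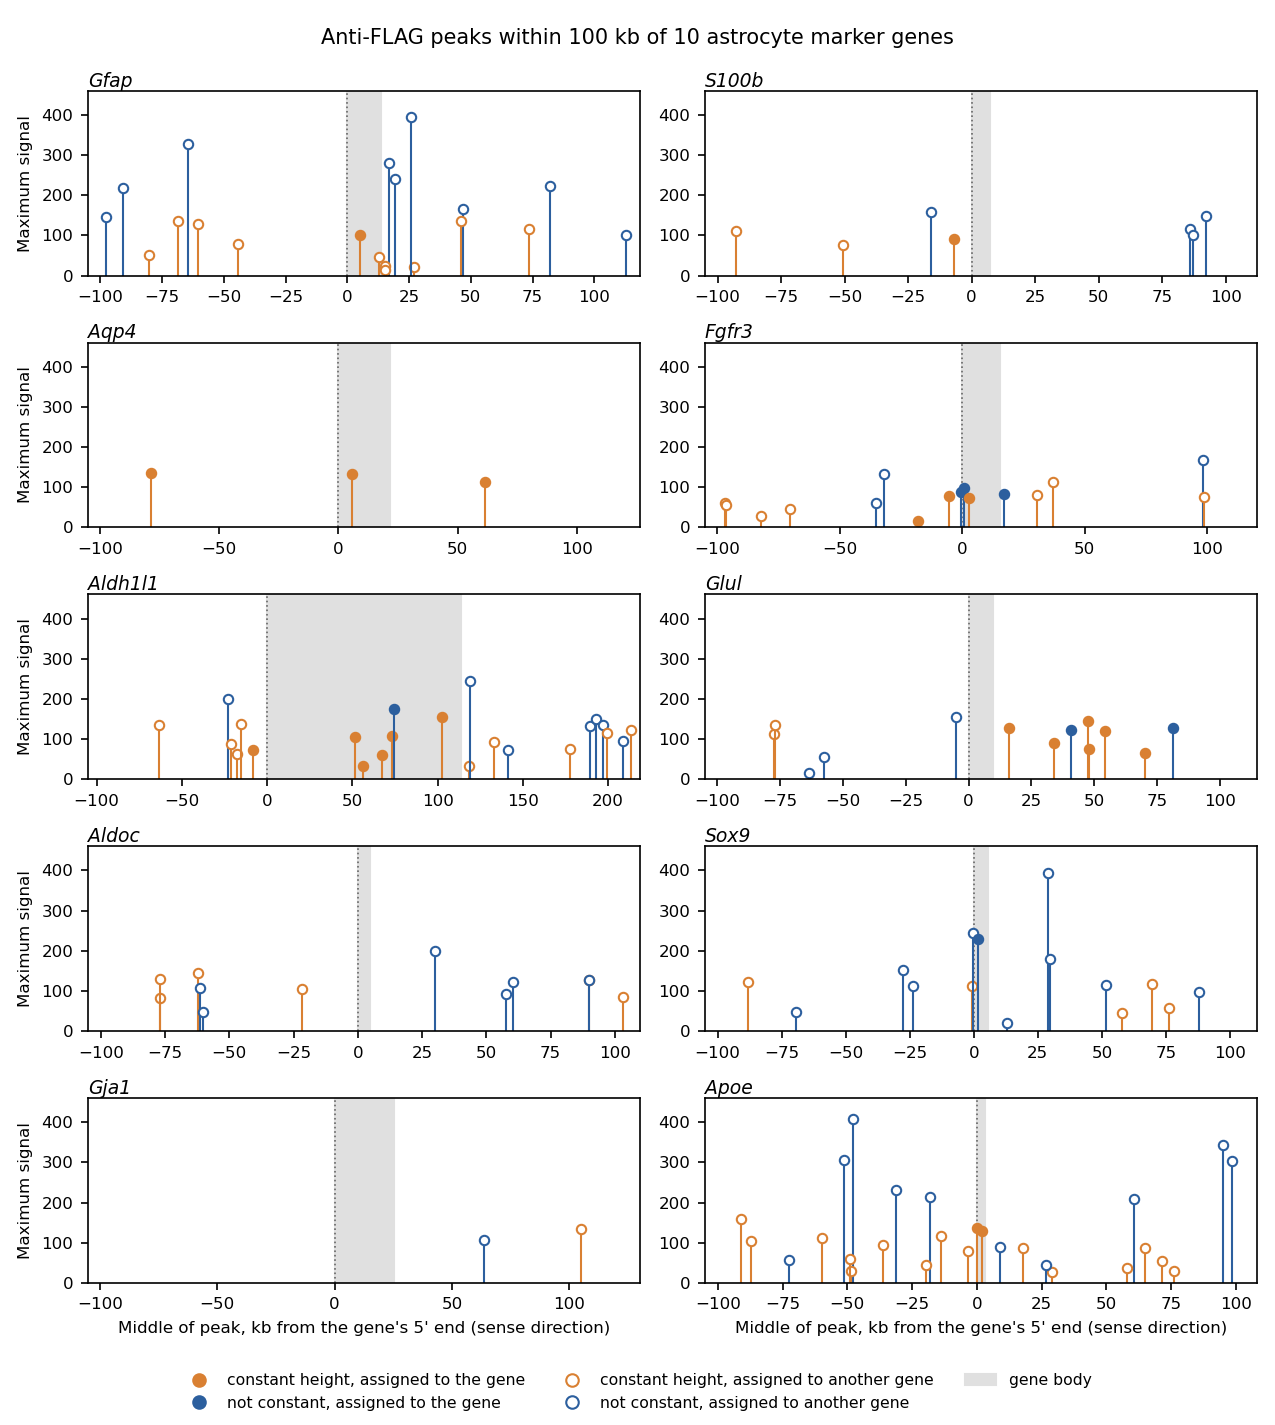
Peaks of any assignment within 100 kb of each of the 10 genes, 1 panel per gene, placed by the distance of the peak's middle from the 5′ end of the gene in kb (horizontal axis, sense direction) and by maximum signal (vertical axis). Filled points are assigned to the gene and open points to another gene, blue marks peaks that are not of constant height and orange those that are, and the gene body is grey; Gja1 has 2 peaks in its panel and Apoe 27.

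Counted by position and not by gene symbol, a peak lay within 1 kb of the start of a protein-coding transcript for 3 of the 10 genes, now Fgfr3, Sox9 and Apoe, against 43.9% of protein-coding genes. For Fgfr3 and Sox9 such a peak was not of constant height, against 31.2% of protein-coding genes. A peak of any assignment overlapped the body of 6 of the 10 genes (Gfap, Aqp4, Aldh1l1, Fgfr3, Sox9 and Apoe), against 63.0% of protein-coding genes. In the pooled bodies of the 10 genes there were 15 peaks in 219.9 kb, or 6.82 per 100 kb (exact Poisson 95% interval 3.82 to 11.2), and 5.68 per 100 kb over all protein-coding genes. The Poisson interval holds the density of all genes. Aldh1l1 alone gave 6 of the 15 peaks and 113777 bp of the pooled length. The distance from a protein-coding start to the nearest peak had a median of 2032 bp over the 10 genes and 2073 bp over all protein-coding genes.

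The heights of the assigned peaks lay around the middle of the whole list. Maximum signal had a median of 102.5 over the 32 peaks and 101 over all peaks, and total signal a median of 21695 against 24532. Exactly 16 of the 32 exceeded the median of all peaks. Of the 10 genes, 1 (Sox9) had an assigned peak in the top 10% of all peaks by maximum (10%, 1.8 to 40.4). Among protein-coding genes this share was 24.8%, which the interval holds. Taking for each gene the highest percentile among its peaks, and 0 where it had none, the median over the 10 genes was 62.3 and over all protein-coding genes 64.7. By gene it ran from 0 for Aldoc and Gja1 through 41.3 for S100b, 48.2 for Fgfr3, 48.9 for Gfap, 75.6 for Aqp4 and Apoe, 80.2 for Glul and 88.1 for Aldh1l1 to 94.2 for Sox9.

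**Figure D3:**
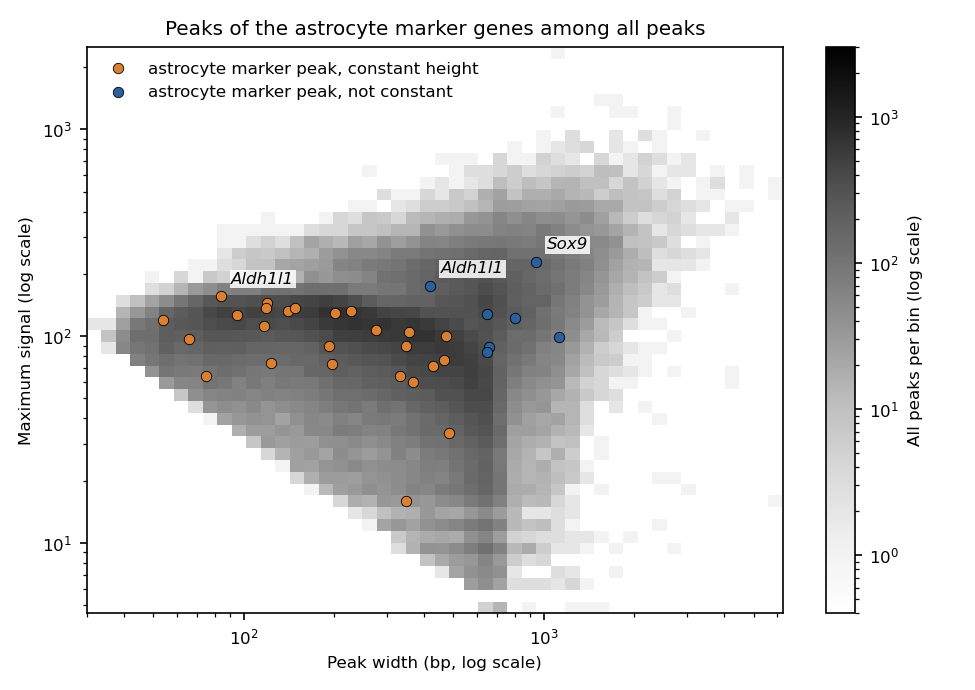
Peak width in bp (horizontal axis, log scale) and maximum signal (vertical axis, log scale) of the 32 peaks assigned to astrocyte marker genes, over a grey density of all 99797 peaks. Orange points are the 25 constant-height peaks and blue points the 7 others; the peak of Sox9 at 229 is the tallest of the 32 and the only peak among them in the top 10% of all peaks by maximum.

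By position, the authors placed 10 of the 32 peaks in promoters within 3 kb of a TSS (31.3%, 18.0 to 48.6), against 24.6% of all peaks, and 14 in distal intergenic sequence (43.8%, 28.2 to 60.7), against 31.9%. Introns held 5 (15.6%, 6.9 to 31.8), against 38.0% of all peaks, and exons 3. The intervals treat peaks as independent, although 27 of the 32 came from Glul, Aldh1l1, Aqp4 and Fgfr3. Within 1 kb of a TSS lay 5 of the 32 (15.6%), against 15.3% of all peaks.

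Most peaks around the genes, and nearly all tall ones, were assigned to other genes. Within 100 kb of the 10 genes there were 138 peaks, of which 29 were assigned to the gene at the centre and 109 to others. A maximum signal of at least 200 was reached by 17 of the 109 and by 1 of the 29, the Sox9 peak. In 9 of the 10 loci the tallest peak was assigned to another gene, with Aqp4 as the exception. These counts by assignment were not made around all protein-coding genes, so they cannot be read as particular to the 10 genes. Near Apoe the tallest was a peak of 408 in an intron of Nectin2, at -47.9 kb from the Apoe start. Near Gfap it was a peak of 394 in an intron of Eftud2, which encodes a splicing factor, and near Sox9 an intergenic peak of 393 28.8 kb downstream of the gene start. Peak density within 100 kb ranged from 0.89 per 100 kb at Gja1 and 1.35 at Aqp4 to 9.36 at Gfap and 13.3 at Apoe, with a median of 6.75 over the 10 genes and 5.21 over all protein-coding genes. By this density Gja1 stood at the 9.14 percentile of protein-coding genes and Apoe at the 92.4 percentile.

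The insulin response sequence was searched as TATTTTG or TATTTTT on either strand in 200 bp windows centred on the stretch of highest coverage of each peak. It was present in 2 of the 32 windows (6.3%, 1.7 to 20.2), against 9.97% of windows over all peaks. Both belonged to Aldh1l1, and neither was at a protein-coding start. They are shown as the only matches among the 32, on the plus strand of mm10, which is the strand of Aldh1l1, with the match in capitals.

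Aldh1l1, chr6:90478341-90478532, peak of 73 over an exon of the noncoding gene Gm44421: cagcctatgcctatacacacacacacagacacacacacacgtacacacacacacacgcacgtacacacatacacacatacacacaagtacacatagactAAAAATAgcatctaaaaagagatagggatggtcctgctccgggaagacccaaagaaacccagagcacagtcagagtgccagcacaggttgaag

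Aldh1l1, chr6:90553528-90553727, intronic peak of 60: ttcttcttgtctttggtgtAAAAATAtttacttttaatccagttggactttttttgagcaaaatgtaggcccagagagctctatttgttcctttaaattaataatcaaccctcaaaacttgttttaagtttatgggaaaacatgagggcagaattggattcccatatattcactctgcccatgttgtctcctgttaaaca

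Both matches read AAAAATA here and TATTTTT on the opposite strand. The tallest Aldh1l1 peak, of 175, is printed for contrast as the region of maximum signal, with CG in capitals. It held no match.

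Aldh1l1, chr6:90560566-90560743, intronic peak of 175: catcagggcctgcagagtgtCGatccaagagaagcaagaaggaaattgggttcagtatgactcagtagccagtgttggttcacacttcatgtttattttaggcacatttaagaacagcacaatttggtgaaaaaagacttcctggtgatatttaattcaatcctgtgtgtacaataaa

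None of the 12 RefSeq promoters held the sequence either, against 11.3% of all promoters of the same length. GC content of the 32 windows had a median of 48.8% and ranged from 32.5% to 73.0%, the highest at the Fgfr3 start, and over all peaks the median was 49%. In 17 of the 32 windows some bases were marked as repeats (53.1%), against 66.7% of windows over all peaks.

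Other gene lists were counted in the same way. Of 20 further astrocyte genes, 11 had an assigned peak within 1 kb of a TSS (55.0%, 34.2 to 74.2), and 8 had a peak there that was not of constant height. The tallest of these peaks were at Acsbg1 (253), Hes5 (200) and Sparcl1 (159), while Slc1a3, Ndrg2 and Mlc1 had no assigned peak within 1 kb. The 10 markers had 3 and 1 such genes. The list called excitatory neuron genes includes Camk2a, Slc17a7, Neurod2, Neurod6 and Tbr1, and also Rbfox3, Syt1, Snap25, Map2 and Dlg4, which are expressed by neurons in general. Of its 15 genes, 12 had an assigned peak within 1 kb (80.0%, 54.8 to 93.0) and 11 a peak that was not of constant height. The tallest were at Dlg4 (887), Nrgn (362) and Gria1 (317), and Neurod6, Tbr1 and Snap25 had no assigned peak there. As at Sox9, a peak over a protein-coding start of Snap25, with a maximum of 215 and not of constant height, was assigned to another gene. Counted by position, 13 of these 15 genes, 10 of the 20 further astrocyte genes and 3 of the 10 markers had a peak within 1 kb of a protein-coding start. By position, the 3 markers reached 99 (Fgfr3), 136 (Apoe) and 245 (Sox9). By the authors' assignment, the 3 markers with a peak within 1 kb of a TSS reached 99 (Fgfr3), 136 (Apoe) and 156 (Aldh1l1). Median height over the genes with an assigned peak there was 136 for the astrocyte markers and 135 for all protein-coding genes. It was 124 for the further astrocyte genes, 132 for the interneuron genes and 248 for the excitatory neuron genes. An assigned peak in the top 10% of all peaks by maximum was found for 13 of the 15 excitatory neuron genes, 9 of the 20 further astrocyte genes and 1 of the 10 markers. The lists differ in gene length, with a median of 11.7 kb for the markers, 24.7 kb for the further astrocyte genes and 62.5 kb for the excitatory neuron genes, and its part in these counts was not tested. They also differ in promoter CG, counted for genes with a RefSeq promoter. A ratio of at least 0.6 was found for 2 of 8 markers, 6 of 16 further astrocyte genes and 5 of 10 excitatory neuron genes. The part of promoter CG was not tested either. No difference between lists was tested.

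**Figure D4:**
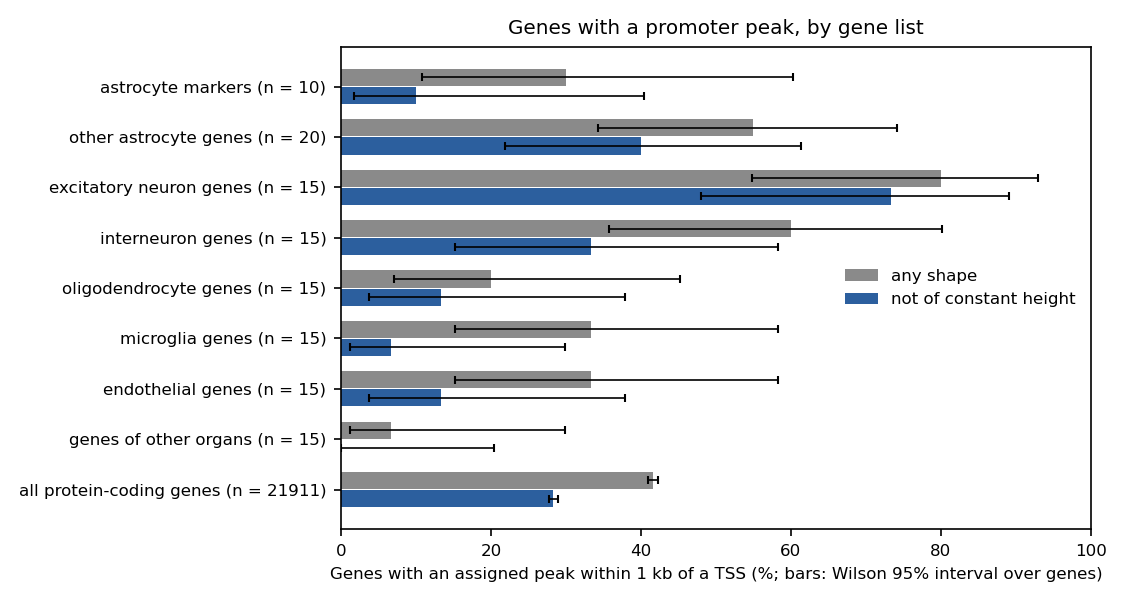
Percent of genes in each list with an assigned peak within 1 kb of a TSS (horizontal axis), for peaks of any shape (grey) and peaks not of constant height (blue), with Wilson 95% intervals over genes. The astrocyte markers are at 30% and 10%, the excitatory neuron genes at 80% and 73.3%, and all protein-coding genes at 41.6% and 28.3%.

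**Figure D5:**
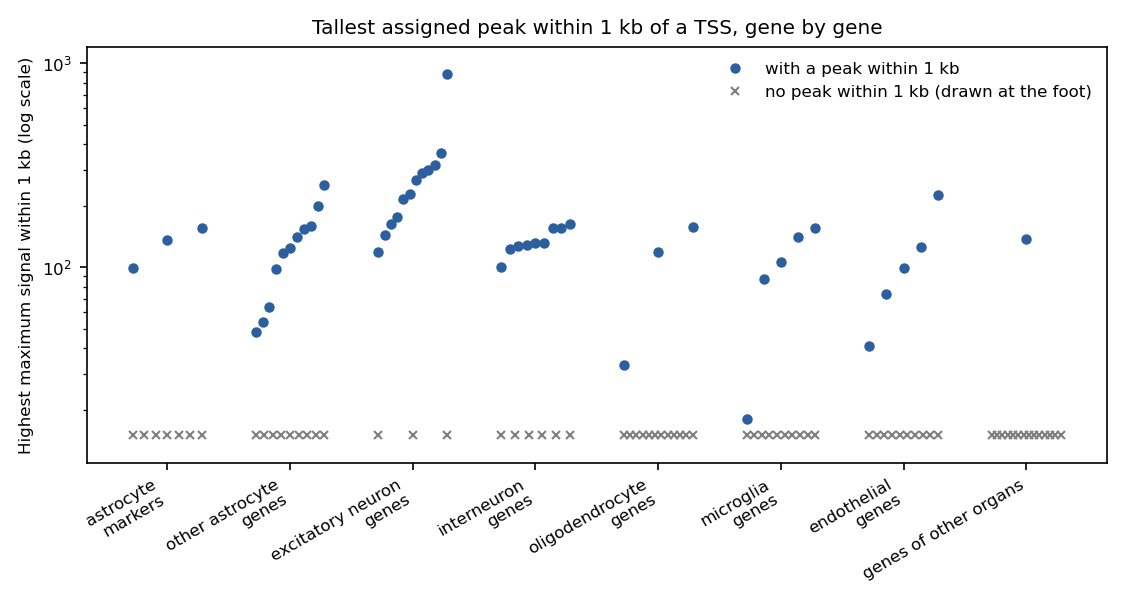
Highest maximum signal (vertical axis, log scale) among the assigned peaks within 1 kb of a TSS, 1 point per gene, for each gene list (horizontal axis). Genes with no such peak are crosses drawn at the foot; the 3 astrocyte markers with a peak lie between 99 and 156, while the excitatory neuron genes reach 887 at Dlg4.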

How the data were processed

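CUT&Tag was done on hippocampus of CamK-PARIS mice, with 1 anti-FLAG and 1 IgG library. The authors' steps, per the labels' protocols, were read trimming, Bowtie2 alignment to mm10, filtering of duplicates and poorly aligned reads, and peak calling by SEACR with IgG as control. Tool versions, the SEACR normalization and the annotation tool are not given in the sources used here. The deposited signal values (coverage summed over a peak, and its maximum) are whole numbers. The deposited annotation gives the distance in bp to an assigned TSS, by the authors. The deposited total signal of the annotation equalled that of the peak list in 100% of 99782 annotated peaks. Constant height was 99% of maximum times width. Peaks were joined to GENCODE M21 and to RefSeq promoters (GRCm38.p6) with Python 3.11.15, pandas 2.3.3 and pysam 0.24.0. Counting functions were tested on simulated data. All 10 genes are named, and from the other lists up to 3 with the highest peak within 1 kb and up to 3 without; some genes these rules name are not reported here. Genes and lists were chosen with earlier results of these data known. No statistical test was made. The alternatives were stricter peak sets, other TSS distances and other assignments. The depth per library is unknown.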

Additional observations from a re-analysis of the deposited data

How the results depend on the processing

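The 9 results on the astrocyte markers were recomputed under 55 alternatives, most of them stricter sets that hold fewer peaks by construction. A count was taken as moved past 1.5 times, a share or density outside its 95% interval, and the median percentile at any change, which gave 34 moved values. With peaks above the median maximum, the assigned peaks were 16 of 32, the genes with a peak 5, those with a peak within 1 kb of a TSS not of constant height 0, and the median percentile 37.8. With the 10% of peaks highest by maximum, these were 1, 1, 0 and 0, genes with a peak within 1 kb were 0, genes with a peak in the body 1, the constant-height and TSS shares 0%, and the body density 0.909 per 100 kb. With the 10% highest by total signal they were 2, 2, 0 and 0, then 0, 1, 0%, 0% and 0.909. Without constant-height peaks, 7 peaks and 4 genes remained, and 1 gene had a peak within 1 kb. In that set 3 genes had a peak in the body at 1.82 per 100 kb, and the median percentile was 0. Its constant-height share was 0% by definition, although it is counted among the moved values. Peaks of at least 200 bp gave 19 peaks, 1 gene within 1 kb and a median percentile of 59.7. Within 3 kb of a TSS, 6 genes had a peak. Inside the wide intervals, the share of peaks within 1 kb still went from 15.6% to 28.6% without constant-height peaks and to 31.3% at 3 kb, and the body density from 6.82 to 4.09 with peaks above the median maximum. Ranking by total signal gave a median percentile of 69.4. With whole peaks and any GENCODE M21 start, 4 genes had a peak within 1 kb, within 1.5 times the 3 reported. Beside these alternatives no shares over all protein-coding genes are given here, so the counts of genes cannot be read as high or low. No paired analysis was possible because each antibody has 1 library. Depth is unknown, so low or missing signal at a start cannot be told from shallow sequencing.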

Other observations

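Other lists of non-neuronal cells and a list from other organs were counted in the same way, as descriptions. Of 15 oligodendrocyte genes, 3 had an assigned peak within 1 kb of a TSS, at Mbp (157), Pdgfra (118) and Mobp (33), while the myelin genes Mog and Mag had none. Of 15 microglia genes, 5 had such a peak, among them Trem2 (156) and Aif1 (106), and Csf1r, Cx3cr1 and Itgam had none. Of 15 endothelial genes, 5 had such a peak, the tallest at Esam (225), Sox17 (125) and Cldn5 (99), and Flt1, Kdr and Tek had none. Counted by position, however, Flt1 had a peak of 46, not of constant height, 541 bp from a protein-coding start. By the authors' assignment, peaks within 1 kb that were not of constant height were found for 2 oligodendrocyte, 1 microglia and 2 endothelial genes. Of 15 genes of liver, muscle, pancreas, skin and other organs, 1 had an assigned peak within 1 kb, Ckm (138), of constant height. Alb, Apoa1 and Ttr had none. Counted by position, 0 of the 15 had a peak within 1 kb of a protein-coding start. The peak nearest to such a start of Ckm was 5302 bp away. Of 15 interneuron genes, 9 had an assigned peak within 1 kb of a TSS, the tallest at Gad1 (162), Pvalb (156) and Reln (155). Sst, Npy and Calb2 had none. For 5 of the 15 an assigned peak within 1 kb was not of constant height. Counted by position, the highest peak within 1 kb of a protein-coding start of Gad1 was 127. No difference between these lists was tested.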
